A study of Mus musculus with 8 samples.

Results

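The wild-type control libraries of 2 mouse lines were compared with each other: 4 hippocampal RNA-seq libraries out of the 8 of the series, 2 from the controls of a Pyk2 knockout line (KO controls) and 2 from the controls of a Pyk2 Y402F line (Y402F controls). The libraries were grouped by their labels, and every gene of their tables off chromosomes X and Y was kept, 51044 of 55241 rows. Of these rows 27319 were above 0 in at least 1 library and 15926 had a mean of at least 1 scaled FPKM and were tested. Scaled FPKM are the deposited values normalised to transcript length and library size (FPKM), divided by a factor for each library. Both groups are labelled wild-type C57BL/6 mice, and neither carries a Pyk2 allele of its line by its label. The other 4 libraries are KO and Y402F mutants of the same lines. Age, sex, litter, cage and the number of animals behind each library are not given in the sources used here. Because of this, p-values measure only the spread between 2 libraries a group, part of which may be technical. Differences are KO controls minus Y402F controls throughout, so higher means higher in the KO controls.

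Wild-type hippocampi can differ in their RNA for reasons unrelated to an engineered allele. The hippocampus holds pyramidal neurons of the CA fields, dentate granule cells, interneurons, glia and blood vessels, and it borders the choroid plexus, the ventricular epithelium that secretes cerebrospinal fluid. Immediate early genes such as Egr1 and Arc are transcribed within minutes of neuronal firing, so their RNA depends on what an animal did shortly before the tissue was taken. A baseline comparison of control groups shows how far such levels stand apart where no difference in Pyk2 genotype is labelled.

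The gene encoding Pyk2 itself, Ptk2b (ENSMUSG00000059456; chromosome 14, 66153257 to 66281052 on the minus strand of GRCm38), had 320 and 320 scaled FPKM in the KO controls and 340 and 336 in the Y402F controls. The pairs did not overlap, but the log2 difference of -0.08 (SE 0.04) was not called (limma adjusted p = 0.311). Its paralog Ptk2, which encodes focal adhesion kinase, was at 35.9 and 25.7 against 28.2 and 22.7, overlapping levels (log2 difference 0.26, limma adjusted p = 0.491). Of 17 tested genes within 1 Mb of Ptk2b, 0 were called by limma and 5 had an unadjusted p under 0.05, beside 26.7% of all tested genes, with 8 positive and 9 negative differences from -0.53 to 0.60.

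The libraries had similar implied depth, and their composition and sex-linked genes followed the line. Interval widths implied 2.22e+06 to 2.24e+06 fragments over protein coding genes in each library, and 24095 to 24411 genes were above 0. Total FPKM was 3.25e+06 and 3.27e+06 in the KO controls and 2.61e+06 and 2.69e+06 in the Y402F controls. For Xist, the RNA that coats the silenced X chromosome in females, the KO controls gave 4.10 and 3.36 scaled FPKM against 0.0548 and 0.313, and the Y-linked Ddx3y at 0.0720 and 0.0721 against 6.06 and 5.07. KO control 2 also held 0.713 of the Y-linked Eif2s3y, against 0 in KO control 1 and 9.56 and 8.34 in the Y402F controls. The sex pattern and the line thus cannot be told apart in any difference between the wild-type pairs. The CA1 marker Wfs1 was at 56.8 to 65.7 in all 4 libraries, while the striatal dopamine receptor genes Drd1 and Drd2 stayed at or below 1.36 and 2.35.

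The 4 libraries fell into their 2 lines across the genome. Within a line, 750 (4.71%) and 737 (4.63%) of the 15926 genes differed by more than 2-fold between the libraries, against 1069 to 1146 (6.71 to 7.20%) across lines. The median absolute log2 difference was 0.16 within each line and 0.30 to 0.31 across them. limma called 507 genes (3.18%) at an adjusted p under 0.05, of which 388 were higher (2.44%) and 119 lower (0.747%). Without a correction for the number of genes, 4258 (26.7%) had a p under 0.05. The median called gene was 0.71 higher or -0.89 lower on the log2 scale, and 116 called genes differed by more than 1. No called gene overlapped between the pairs, and 58.6% of all tested genes did not overlap either.

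The deposited confidence bounds, scaled like the values, give a second view, with no test. In 1207 genes (7.58%) both intervals of one pair lay wholly beyond both of the other, 698 higher (4.38%) and 509 lower (3.20%). With a margin of 1.5 times, 35 genes (0.220%) remained, 18 higher and 17 lower. Of the 507 called genes, 393 also had separate intervals. The bounds cover the estimate within 1 library only, and for genes near 10 FPKM they lay a median of 25.3 to 27.7% above the value. The calls needed all 4 libraries. limma called 0 genes without KO control 1, KO control 2, Y402F control 1 or Y402F control 2, with 3010, 2950, 3170 and 3018 genes at an unadjusted p under 0.05.

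**Figure D1:**
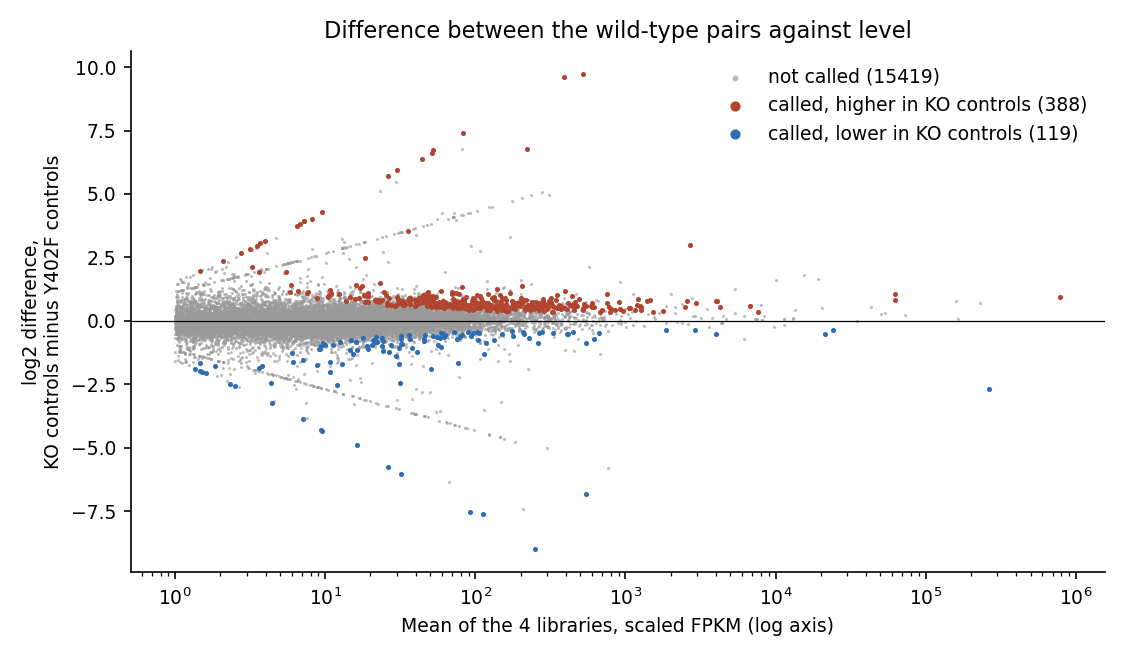
Log2 difference (KO controls minus Y402F controls) of each tested gene against its mean level in scaled FPKM on a log axis; the 388 called higher are red, the 119 called lower blue and the rest grey. The slanted rows of points are genes at 0 in some of the libraries, and most calls above 10 FPKM lie within 2 log2 units of 0.

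Genes of energy metabolism and translation made up a broad band of modest rises. In the respiratory chain, the inner mitochondrial membrane complexes that pass electrons to oxygen and make ATP, 24 of 73 tested nuclear genes were higher and 0 lower, with 71 positive differences and a median of 0.43, beside 2.44% higher and a median of -0.01 over all genes. The messages of this group are short, with a median transcript of 1141 bases in complex I against 3451 over all coding genes. Complex I, which oxidises NADH, had 13 of 35 higher. Ndufa7, an accessory subunit, was at 253 and 250 scaled FPKM against 152 and 154 (log2 difference 0.71, SE 0.05, limma adjusted p = 0.0362). Ndufb2, another accessory subunit, was at 103 and 110 against 58.6 and 59.0 (0.84). All 4 libraries of each of these genes separated by line, as they did in 58.6% of all tested genes.

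The other complexes showed the same direction. In complex II, succinate dehydrogenase, 2 of 4 members were higher, among them the membrane anchor Sdhc at 175 and 169 against 95.5 and 94.9. Its catalytic subunit Sdha was at 136 and 131 against 138 and 113, with overlapping pairs. Complex III had 3 of 9 higher, including Cyc1, the cytochrome c1 gene (226 and 223 against 131 and 137), and complex IV 4 of 10, including Cox6a1 (908 and 941 against 677 and 663). Of 16 ATP synthase genes 3 were higher, with the catalytic beta subunit Atp5b at 1507 and 1485 against 1024 and 1046.

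Of 13 protein genes of the mitochondrial genome 2 were higher and 1 lower, with 10 positive differences and a median of 0.08. mt-Nd3, a complex I subunit, was at 5187 and 5034 against 2866 and 2997 (0.80, limma adjusted p = 0.0362), and mt-Nd2 also rose (0.36). mt-Co1, the catalytic core of complex IV, was the 1 lower member, at 17666 and 17322 against 24923 and 25551 (-0.53, limma adjusted p = 0.0362). The pseudogenes Gm29216 (-0.35) and Gm13340 (-0.50) were called lower too, and nuclear copies of mitochondrial genes can share reads with them.

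Of 74 cytosolic ribosomal protein genes 26 were higher and 0 lower, beside 2.44% higher over all tested genes, with 67 positive and 7 negative differences. The large subunit had 18 of 43 higher, among them the stalk protein Rplp1, with the smallest p of the list, at 1532 and 1598 scaled FPKM against 857 and 857 (0.87, SE 0.04, limma adjusted p = 0.0308). The small subunit had 8 of 31 higher, with Rps14 at 1015 and 1006 against 509 and 462 (1.06) and Rps3 at 524 and 506 against 318 and 313 (0.71). Mitochondrial ribosomal proteins, which translate the 13 mitochondrial messages, had 3 of 45 higher with a median of 0.30. Proteasome genes, which encode the main protease of the cytosol, had 0 of 31 called by limma (10 at an unadjusted p under 0.05) and a median of 0.12. The median transcript of the ribosomal large subunit genes had 1059 bases.

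Metallothioneins, small cysteine-rich proteins that bind zinc and copper, formed 1 of only 2 runs of at least 3 neighbouring tested genes called in 1 direction. Mt1 was at 917 and 937 against 637 and 620 (0.56, SE 0.04, limma adjusted p = 0.0362), Mt2 at 654 and 606 against 372 and 327 (0.85), and the brain-enriched Mt3 at 1685 and 1753 against 1346 and 1337 (0.36). They lie side by side on chromosome 8 (GRCm38): Mt3 from 94152607 to 94154146, Mt2 from 94172664 to 94173568 and Mt1 from 94179082 to 94180327, all on the plus strand. Mt1 and Mt2 are textbook targets of the metal-sensing factor MTF-1, which binds metal response elements. The 250 bases before each RefSeq start (GRCm38.p6) are shown because the 3 neighbours moved together; capitals mark matches to the element's core, TGCACNC or TGCGCNC, on either strand, with no overlap between matches.
Mt3, chr8:94152357-94152606: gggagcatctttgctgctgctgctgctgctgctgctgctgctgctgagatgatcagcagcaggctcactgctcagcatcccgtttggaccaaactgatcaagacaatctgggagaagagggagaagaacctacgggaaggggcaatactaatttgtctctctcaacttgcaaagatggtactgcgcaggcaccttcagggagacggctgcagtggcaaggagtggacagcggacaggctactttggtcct
Mt2, chr8:94172368-94172617: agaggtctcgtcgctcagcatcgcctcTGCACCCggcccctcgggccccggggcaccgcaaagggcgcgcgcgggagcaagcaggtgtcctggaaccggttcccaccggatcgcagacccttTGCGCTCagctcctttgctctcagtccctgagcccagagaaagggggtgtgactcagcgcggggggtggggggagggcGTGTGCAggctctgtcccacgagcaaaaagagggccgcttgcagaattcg
Mt1, chr8:94178839-94179088: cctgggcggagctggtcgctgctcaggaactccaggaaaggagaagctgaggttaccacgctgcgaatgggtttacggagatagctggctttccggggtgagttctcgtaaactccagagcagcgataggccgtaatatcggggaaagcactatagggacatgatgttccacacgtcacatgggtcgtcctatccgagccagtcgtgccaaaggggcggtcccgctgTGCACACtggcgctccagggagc
In these windows Mt2 held 3 matches, 2 on its own strand and 1 on the other, Mt1 held 1 and Mt3 held 0. The Mt1 window ends at 94179088, inside the gene position given above, which starts at 94179082. Bases outside the windows were not searched, so the counts do not cover whole promoters. Of all 32851 upstream windows of 250 bases in the RefSeq table, 21.4% held at least 1 match and 1.26% held 3 or more.

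Endoplasmic reticulum chaperones had 2 of 20 higher, beside 2.44% of all tested genes. Sdf2l1, a partner of the chaperone BiP, was at 9.43 and 9.60 against 3.69 and 3.54 (1.19), and the calcium-binding chaperone Calr at 306 and 293 against 208 and 198 (0.56). Cytosolic heat shock proteins had 0 of 17 called, with 11 positive and 6 negative differences. At an unadjusted p under 0.05 were 4 higher and 1 lower. The lower one, Dnaja1, had the smallest p (-0.56, limma adjusted p = 0.0539), while Hspb1 was at 0.96 (limma adjusted p = 0.0706). Among the glucocorticoid response genes Mt1 and Mt2 were the only 2 of 14 called.

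The 10 protein coding genes with the largest called rises and separate intervals ranged from 1.06 to 1.48. Gtpbp6, a mitochondrial GTPase gene, led with 32.8 and 36.3 scaled FPKM against 11.3 and 12.1 (1.48, SE 0.10, limma adjusted p = 0.0362). Idnk, a gluconate kinase, was at 25.5 and 26.0 against 8.94 and 9.56, and Klk8, the extracellular protease neuropsin, at 21.8 and 27.7 against 9.72 and 9.39. Tmem256, Tomm40l, Cops9, Ppp4c, Eif6, Rps14 and Sdf2l1 completed the group. That their pairs stood wholly apart follows from the selection by separate intervals. Gtpbp6, Idnk and Klk8 had 23.3 or more implied fragments in every library.

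The largest called falls among coding genes with separate intervals ran from -1.26 to -6.81, led by the choroid plexus gene Ttr. Ecrg4, a secreted peptide precursor that choroid plexus also expresses, was at 0.985 and 0.987 against 5.37 and 7.18 (-1.86), with about 5 implied fragments in each KO control. Trank1, a large neuronal gene, was at 5.76 and 5.46 against 18.8 and 22.0 (-1.69, SE 0.13, limma adjusted p = 0.0362). Klf10, a transcription factor induced by TGF-beta, was at 7.91 and 8.76 against 19.8 and 24.5 (-1.30), and the co-receptor gene Kl, klotho, at 3.36 and 2.92 against 8.28 and 9.60 (-1.26). Kcne2, Wsb1, Snhg11, Enpp2 and Tmem131l were the others. That no KO control reached a Y402F control in any of the 10 follows from their selection by separate intervals. Snhg11, annotated as protein coding, also counts among the lower members of the nuclear long noncoding RNA list below. Among abundant genes, the iron store Fth1 was at 8270 and 8016 against 5532 and 5406 (0.57) and the cytoskeletal gene Actb at 2542 and 2595 against 3296 and 3240 (-0.35).

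Some markers of glia and blood were called higher too, beside 2.44% called higher over all tested genes. All 4 tested hemoglobin genes rose, with Hba-a2 at 138 and 147 against 70.2 and 71.8 (1.00, limma adjusted p = 0.0362), and the summed blood markers were 599 and 599 against 318 and 336. Of 16 microglia genes 3 rose and 0 fell, among them the signalling adaptor Tyrobp (47.5 and 49.3 against 27.3 and 25.3, 0.86) and the complement gene C1qc (58.8 and 59.8 against 37.0 and 33.5, 0.74). Csf1r, the receptor microglia need to survive, was at 25.7 and 27.2 against 30.8 and 31.6 (-0.23, not called). Microglia markers summed to 566 and 576 against 415 and 388. In bulk tissue, fewer cells of a type and less RNA per cell cannot be told apart.

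In astrocytes 5 of 16 genes rose, and the apolipoprotein gene Apoe was at 2948 and 2933 against 2038 and 1978 (0.55) and the filament gene Gfap at 224 and 228 against 151 and 148 (0.59). The astrocyte glutamate transporters Slc1a3 (-0.30) and Slc1a2 (-0.26) and the water channel Aqp4 (-0.40) had negative differences that were not called. In oligodendrocytes 3 of 17 rose, with 12 positive and 5 negative differences and a median of 0.11. The myelin gene Mbp was at 3630 and 3766 against 2224 and 2256 (0.72). Of leptomeningeal genes Ptgds was higher (942 and 935 against 568 and 574) and the proteoglycan Dcn lower (33.5 and 33.4 against 54.8 and 61.3). The neuropeptide genes Cck (0.42) and Cort (0.79) were the 2 called of 17 interneuron markers, and Nnat (0.42) the 1 called of 9 CA3 markers. Over all tested genes 2.44% were called higher. Endothelium (13 genes), pericytes (8), CA1 (9), CA2 (7), striatum (8), thalamus (8) and neocortex (15) had 0 calls by limma. They had 2, 1, 3, 2, 2, 1 and 3 genes at an unadjusted p under 0.05, beside 26.7% of all tested genes.

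Choroid plexus markers had the largest median difference of the 51 lists, -1.67. Ttr, the thyroid hormone carrier that this epithelium secretes, was at 9.38 and 7.995 against 1066 and 1094 (-6.81, SE 0.09, limma adjusted p = 0.00131). All 11 tested markers were lower in both KO controls than in either Y402F control, while 58.6% of all tested genes did not overlap in either direction. Of the 11 markers 5 were called, beside 0.747% lower over all tested genes. Of the 16 listed markers 4 fell below the filter, and 6 of the 11 tested averaged at least 10 implied fragments. The filter uses the mean of all 4 libraries, so a marker near 0 in the KO controls, such as Kcne2, was tested only through its Y402F values. The count of 11 is thus partly set by the filter. Enpp2, the autotaxin gene, was at 36.9 and 35.8 against 114 and 121 (-1.67), and the channel subunit gene Kcne2 was listed at 0 in both KO controls and at 2.82 and 3.56 in the Y402F controls. Aqp1, the apical water channel, was listed at 0 in both KO controls as well and at 1.09 and 1.38 in the others, under the level tested. The list summed to 54.4 and 52.4 against 1214 and 1257, of which Ttr held most. How far this difference bears on other genes was not tested.

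Immediate early transcription factors leaned the same way by less. Of 18 tested members 2 were called lower, beside 0.747% of all tested genes, 14 had negative differences and the median was -0.51. Egr1, a zinc finger factor, was at 19.9 and 19.3 against 41.0 and 43.1 (-1.07, SE 0.08, limma adjusted p = 0.0362), and the nuclear receptor Nr4a3 at 13.2 and 13.5 against 22.6 and 21.8 (-0.69). Fos was at 2.85 and 1.66 against 7.83 and 5.64 (-1.26, limma adjusted p = 0.0947), while Fosb (0.11) and Ier5 (0.05) overlapped. Activity-induced effectors had 13 positive and 14 negative differences and a median of -0.21. Of these 27 genes 1 was called, beside 3.18% of all tested genes. It was Arc, at 17.9 and 18.9 against 35.4 and 37.7 (-0.96, limma adjusted p = 0.0375). Dentate granule markers had 0 of 13 called, with 10 negative and 3 positive differences from -1.20 to 0.42 and a median of -0.49. At an unadjusted p under 0.05 were 7 lower and 1 higher, beside 26.7% of all tested genes in either direction. The granule cell factor Prox1 was at 8.99 and 9.66 against 18.7 and 16.4 (-0.84, limma adjusted p = 0.0528).

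Of 17 long noncoding RNAs retained in the nucleus 6 were lower and 0 higher, beside 0.747% lower over all genes, with 14 negative and 3 positive differences. Malat1, a nuclear speckle RNA on chromosome 19 (5795690 to 5802672), was at 8.66 and 9.29 against 52.4 and 55.3 (-2.46, SE 0.09, limma adjusted p = 0.0150). Meg3, an imprinted RNA, was at 18.5 and 23.8 against 85.1 and 76.1 (-1.89), and Rian, from the same imprinted cluster, at 341 and 335 against 479 and 486 (-0.51). Miat was at 2.46 and 2.57 against 9.10 and 10.3 and formed the second run of neighbours with Gm26953 and Gm27998 on chromosome 5. Those 3 overlap one another, Gm26953 on the opposite strand, so their reads cannot be told apart here.

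Splicing factors and Clk kinases, which act on nuclear precursors, had 6 of 49 lower, beside 0.747% of all tested genes. This list had 44 negative differences and a median of -0.38. Its median transcript had 4010 bases, and that of the nuclear RNAs 4608. Hnrnpdl was at 37.8 and 37.9 against 72.7 and 75.9 (-0.95), and Ptbp2, a neuronal splicing repressor, at 38.5 and 38.7 against 72.8 and 86.8 (-1.02). Wsb1, a ubiquitin ligase adaptor in this list that is no splicing factor itself, was at 2.89 and 4.49 against 17.2 and 18.5 (-2.02). The helicase Ddx5 (-0.53), Hnrnpm (-0.56) and Luc7l2 (-0.82) were called too. Among receptor and channel lists, NMDA receptors (6), AMPA and kainate receptors (8), postsynaptic scaffolds (18), synaptic vesicle genes (22) and potassium channels (29) had 0 calls by limma. They had 3, 2, 5, 10 and 12 genes at an unadjusted p under 0.05, beside 26.7% of all tested genes. Of 23 Pyk2 partners 1 was called, beside 3.18% of all tested genes. It was Cttn, the actin-binding cortactin gene (140 and 143 against 218 and 209, -0.59). Of 9 genes known to differ between C57BL/6 substrains 0 were called and 1 had an unadjusted p under 0.05.

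**Figure D2:**
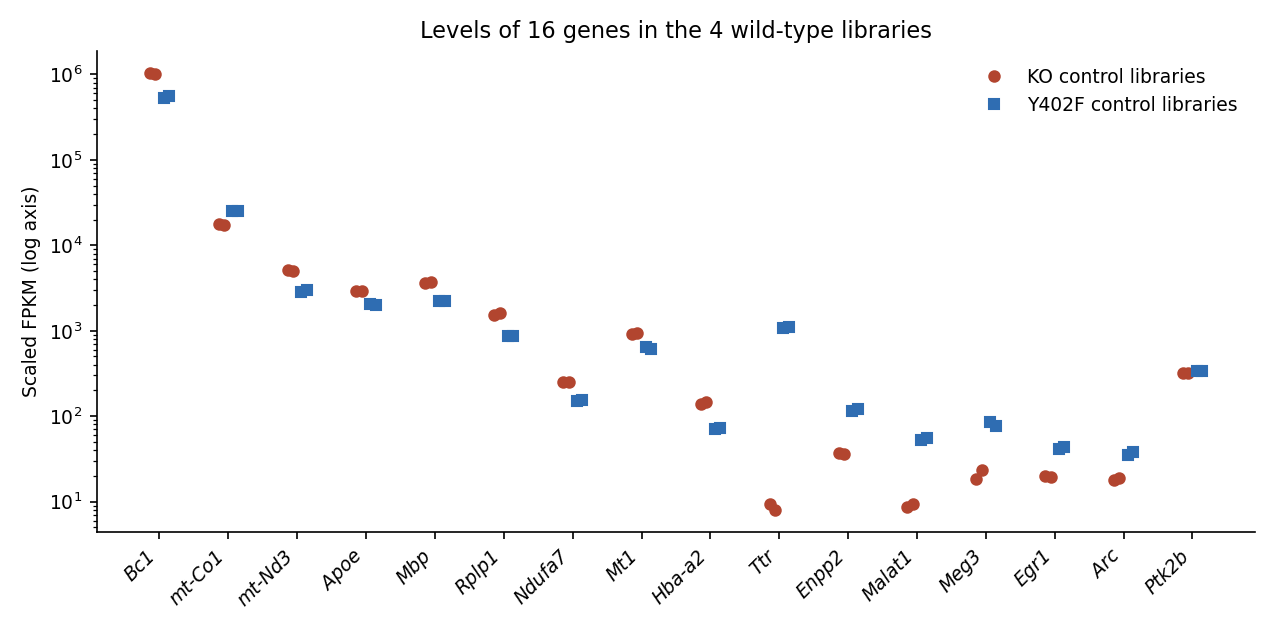
Scaled FPKM on a log axis of 16 genes in each of the 4 libraries, KO controls as red circles and Y402F controls as blue squares. The 2 libraries of a line lie close together for every gene, Ttr is separated by about 2 decades, and Ptk2b is nearly level.

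The direction of the differences followed transcript length. Over 12296 protein coding genes the log2 difference had a Spearman rho of -0.40 with the length of the longest annotated transcript and 0.34 with its GC content, a description across genes that share the same 4 libraries. Called coding genes that were higher had a median length of 1332.5 bases, those lower 4253, and all coding genes 3451. With coding genes split by length into 5 equal bins, the shortest bin had 145 higher and 7 lower, and the longest 1 higher and 28 lower. The medians of the bins ran from 0.22 to -0.24. Between libraries of the same line rho with length was 0.01 and -0.01, and in the 4 pairs across lines it was -0.34 to -0.35.

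**Figure D3:**
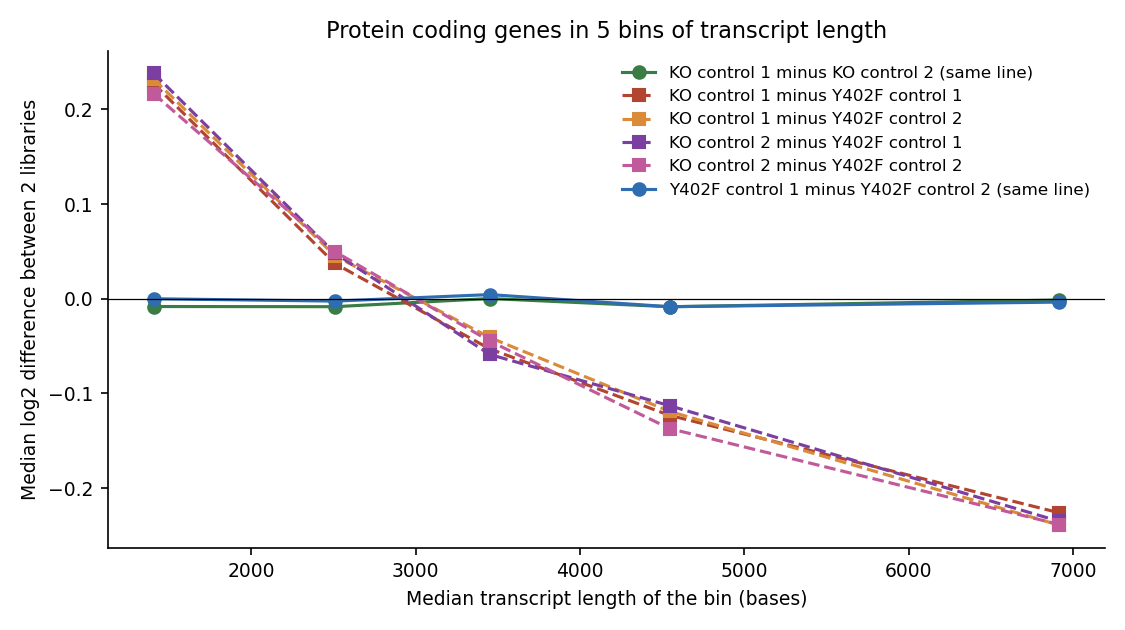
Median log2 difference between 2 libraries in each of 5 bins of protein coding genes by transcript length (x axis, median length in bases) for all 6 pairs of libraries. The 4 pairs across lines (squares, dashed) fall from above 0.21 to below -0.22, and the 2 pairs within a line (circles, solid) stay within 0.01 of 0.

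With splines of length and GC content removed from each library, an alternative chosen after the trend was seen, limma called 14 genes, all among the 507. They were Ttr (-6.89), Enpp2 (-1.55), Malat1 (-2.16), Mir212, Mir1247, Mir3098, Mir6904, Mir5046, Gm22997, Gm22663, Gm22643, Gm25596, Gm31294 and A830082N09Rik. Among them Mir212, Mir1247, Mir6904, Mir5046, Gm22997, Gm22663 and Gm31294 were listed at 0 in both libraries of 1 pair. Each library of the other pair implied about 1 fragment or fewer for these genes. Every one of the 506 calls that could be refitted kept its direction, and 486 had an unadjusted p under 0.05. The median of complex I went from 0.45 to 0.33, of complex IV from 0.46 to 0.23, of the large ribosomal subunit from 0.43 to 0.25, of the activity-induced effectors from -0.21 to -0.06 and of the splicing list from -0.38 to -0.25. The choroid plexus list (-1.67 to -1.55) and the immediate early factors (-0.51 to -0.56) moved little. Egr1 was then at -1.09 (limma adjusted p = 0.0739) and Mbp at 0.82 (limma adjusted p = 0.0538), while Mt1 was at 0.34, Mt2 at 0.53 and Mt3 at 0.00. Cck (0.42 to 0.11), Nnat (0.42 to 0.16), Cox6a1 (0.46 to 0.12) and Rian (-0.51 to -0.18) also moved by over 1.5 times, as did Cort (0.45 with length and GC removed), Apoe (0.29), C1qc (0.46), Tyrobp (0.55), Ptgds (0.47), Hba-a2 (0.66) and Rplp1 (0.53).

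**Figure D4:**
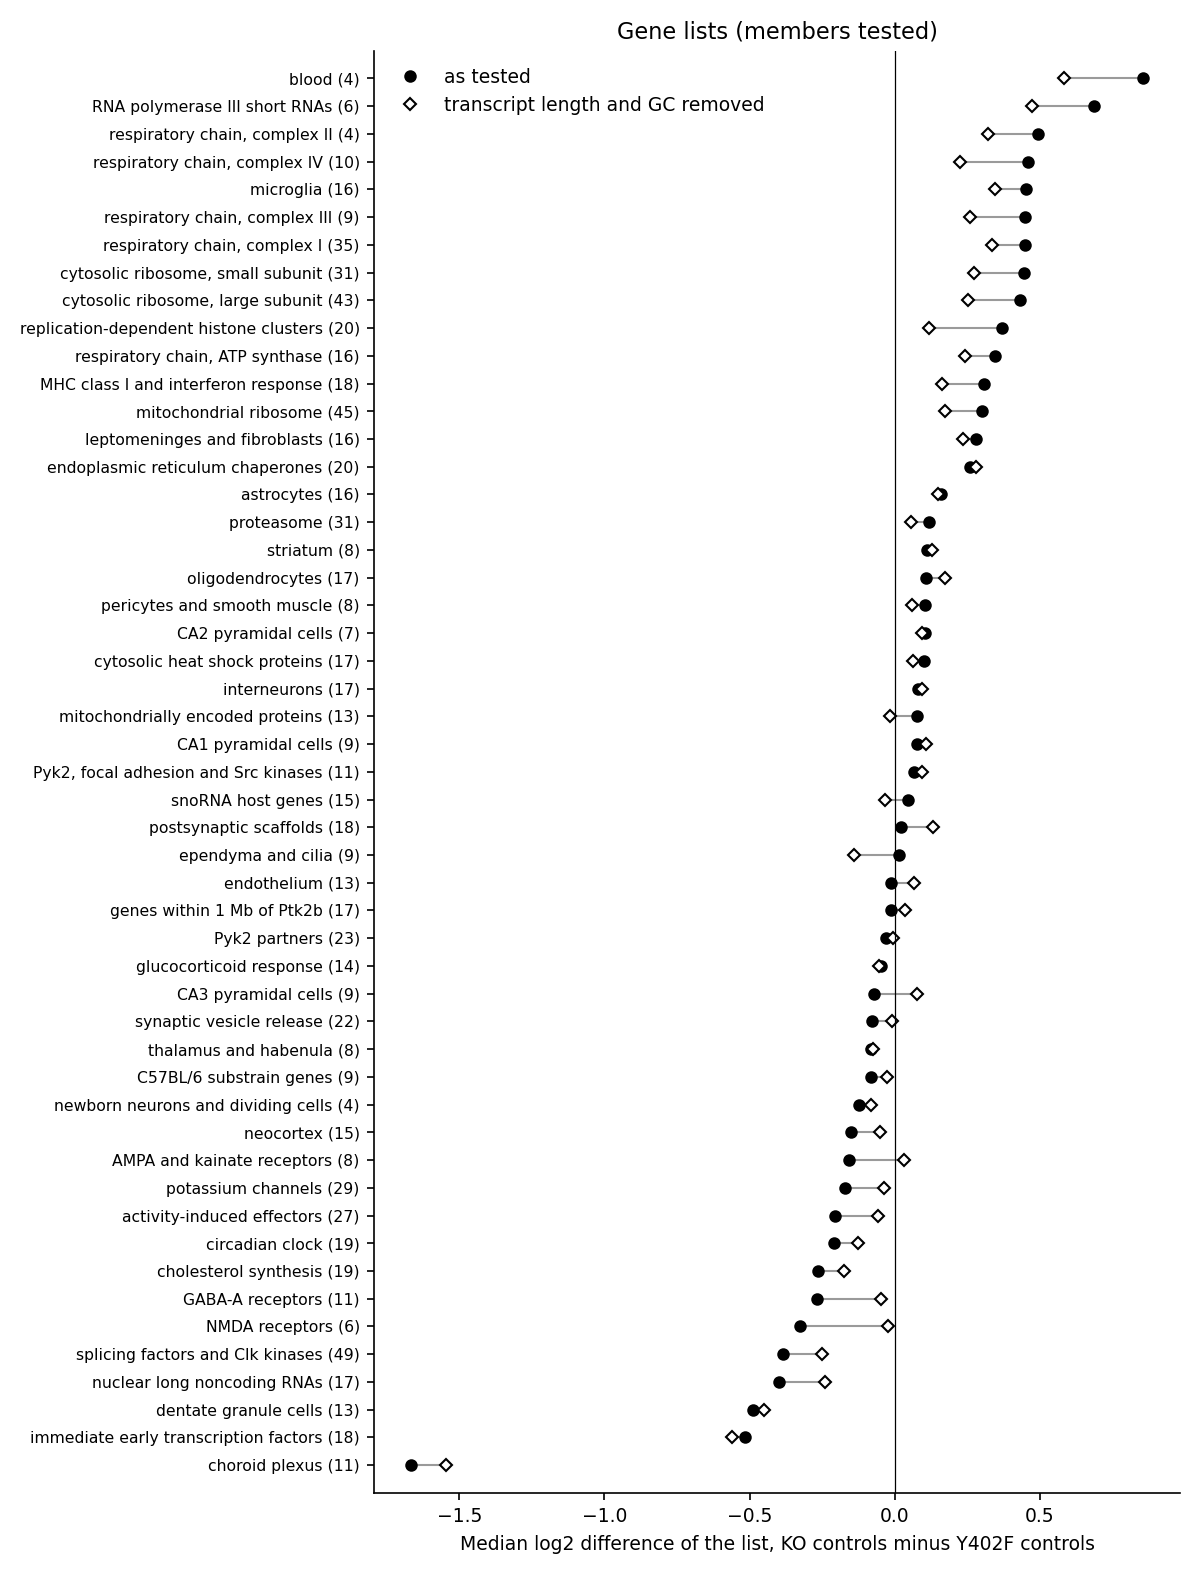
Median log2 difference of each of the 51 gene lists as tested (filled circles) and with transcript length and GC removed (open diamonds), with the number of tested members in brackets. Blood, respiratory chain and ribosomal lists stay above 0 and the choroid plexus and immediate early lists below it, while the receptor lists move to near 0.

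Among noncoding classes, Bc1, a short neuronal RNA made by RNA polymerase III that represses translation at dendrites (chromosome 7, 144914470 to 144914637), had the highest level of any single tested gene in every library. It held 32.6 and 31.5% of all FPKM in the KO controls and 20.3 and 20.7% in the Y402F controls. The 22 mitochondrial tRNAs together held 34.3 and 35.6% of all FPKM against 42.2 and 42.7%. Their summed scaled FPKM were nonetheless alike, at 1.11e+06 and 1.15e+06 against 1.10e+06 and 1.16e+06. The scaled level of Bc1 was 1.05e+06 and 1.02e+06 against 529985 and 561239 (0.93, SE 0.05, limma adjusted p = 0.0362). FPKM of RNAs this short depend strongly on how fragment length is handled. Of 22 mitochondrial tRNAs 4 were higher and 1 lower, with 19 positive differences. mt-Tn, for asparagine, was at 81111 and 78920 against 44439 and 45667 (0.83), while mt-Ts1, for a serine, was at 80136 and 62699 against 442870 and 463380 (-2.68, limma adjusted p = 0.0354). The mitochondrial large ribosomal RNA mt-Rnr2 was at 5186 and 4971 against 3483 and 3546 (0.53).

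Genes that the mutant tables do not list made up 3430 of the 15926 tested, and 199 of these were called (5.80%), 169 higher and 30 lower, against 308 of 12496 others (2.46%). Pseudogenes accounted for most, with 145 higher and 13 lower of 2414 in all, and 47 of the 158 called carry the names of ribosomal protein pseudogenes, all higher. Pseudogenes can share reads with their parent genes, which was not tested, so these calls are uncertain. Large differences in this group rested on a few fragments. Mir212 was at 104 and 104 scaled FPKM and listed at 0 in both Y402F controls, with an implied 1.00 fragments in each KO control. Gm22663, a small nuclear RNA, was at 64.1 and 64.3 in the Y402F controls, again 1.00 implied fragments, and listed at 0 in the others. In all 8 called microRNA genes the mean was under 3 implied fragments, and 59 of the 507 called genes averaged under 10. Libraries that hold the same single fragment show no spread between them. With at least 10 implied fragments required, also chosen after these values were seen, limma called 1597 of 12471 genes.

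The mutant libraries of the same lines give a separate contrast, KO minus Y402F, which also differs in the Pyk2 allele. Each mutant pair held 1 library with high Xist and 1 with high Ddx3y (KO 24.4 and 0.16 FPKM of Xist, Y402F 37.9 and 0.10). Of 307 called genes with values there, 241 (78.5%) had the same sign in the mutants, against 7285 of 12429 (58.6%) of all matched genes. Of those higher in the KO controls 181 of 218 were also higher in KO, and of those lower 60 of 89 were lower. The differences were small in the mutants, with medians of 0.11 and -0.06. Transcript length had a rho of -0.17 there.

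The named genes divided in the mutants. Mt3 was at 1116 and 1084 scaled FPKM in KO against 836 and 931 in Y402F, and Mt1 at 505 and 520 against 394 and 445, in the order of the wild types and without overlap. Hba-a2 was at 33.0 and 26.9 against 8.62 and 14.6, again higher. Egr1 was at 62.9 and 76.9 against 55.9 and 40.9, and Arc at 58.0 and 76.7 against 50.6 and 39.1, the opposite order. Ttr was at 1.13 and 9.63 against 2.11 and 619, so the high value lay in Y402F replicate 2 alone. Malat1 overlapped, at 16.5 and 11.4 against 18.8 and 8.94. Whether the wild-type and mutant differences of these genes differ from each other was not tested.

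**Figure D5:**
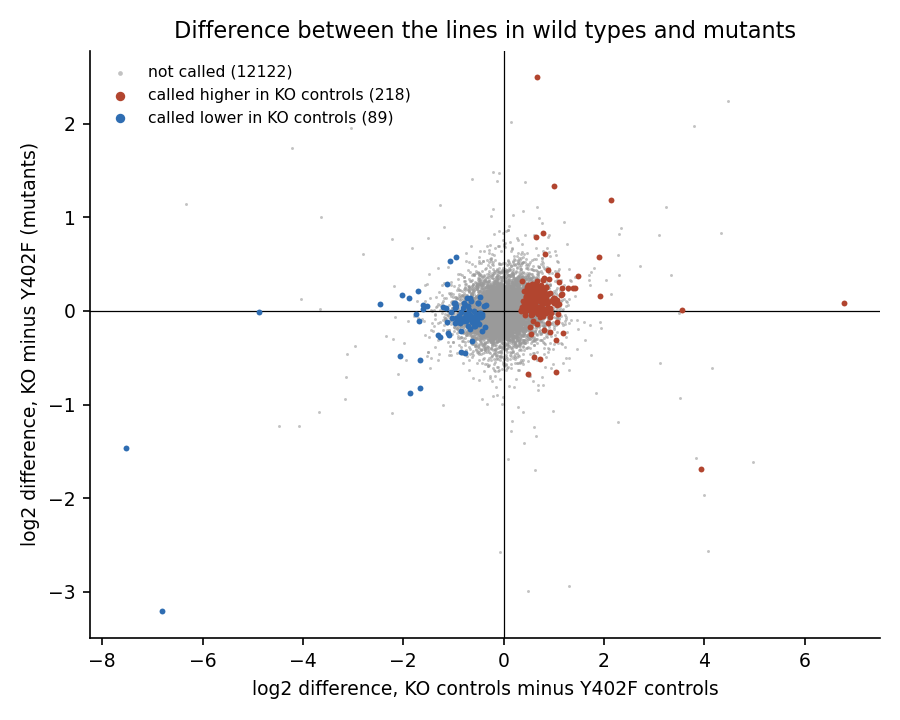
Log2 difference between the lines in the mutants (KO minus Y402F, y axis) against that in the wild-type controls (x axis) for 12429 matched genes, with the 218 called higher in red and the 89 called lower in blue. Most red points lie above 0 and most blue points below it, at smaller sizes than in the wild types, and Ttr is the lowest point.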

How the data were processed

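Hippocampal total RNA of 8 mouse libraries was sequenced, and the 4 wild-type libraries were analysed here. Per the file headers, each deposited table gives FPKM per Ensembl gene, made by the authors, with 2 confidence bounds per gene and no counts. Bowtie 1, HISAT, Cufflinks and build mm9 are given per the submitters' processing notes. Of 54981 annotated rows, however, 99.7217% match GENCODE M21 in their first or last base (GRCm38), the build of the positions given. The mutant libraries' FPKM, deposited by the authors with Entrez identifiers, were matched by symbol.

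Scaling used 1 median-of-ratios factor a library, computed over 14061 autosomal genes (0.991675 to 1.00846). limma 3.58.1 (R 4.3.3) with an intensity trend was fitted to log2(scaled FPKM + 1) of genes with a mean of at least 1. The fit had 2 residual degrees of freedom. On simulated data it recovered 49 of 100 changes of 1 log2 unit and 85 of 100 changes of 2, with 4 false calls. Changes of 1 log2 unit or less can thus be missed. A call means an adjusted p (Benjamini-Hochberg, over all genes tested) under 0.05. These log2 differences understate changes of low genes. Read depth is not given. Implied fragments are the square of 2 times the value over the distance to its upper bound. This fitted 1 fragment for 834 to 982 of the 8612 to 8831 genes a library with a lower bound of 0. Intervals and implied fragments describe 1 library each and do not cover the spread between libraries. Their widths also reflect more than counting. In KO control 1, mt-Co1 implied 2321 fragments at 17666 scaled FPKM. The pseudogene Gm13340, also with a transcript of 1545 bases, implied 32527 at 3389. Rows on X and Y (4197) were left out, 41 identifiers occur on several rows, and 260 rows had no annotation.

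The text names, among called genes with separate intervals, the 10 largest rises and falls of protein coding genes and the 6 of other types (Gm, Rik and pseudogene symbols left out), Ptk2b, Ptk2, the 5 most abundant in each direction, the 5 largest in each direction absent from the mutant tables, up to 4 members of each list by p, and runs of at least 3 called neighbours. Not all are printed. Other members and the genes called after length and GC removal were named after their values were seen. The comparison, the 51 lists and the rule were chosen with earlier results of these data known. Alternatives changed the pseudocount, filter, scaling, trend, libraries, replicate block, sex chromosomes and interval margin. Tables were handled in pandas 2.3.3 and numpy 2.4.6 under Python 3.11.15, and figures drawn with matplotlib 3.10.9.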

Additional observations from a re-analysis of the deposited data

How the results depend on the processing

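The 507 calls ranged widely with the settings. limma called 11 genes with no filter on low values (5274 at an unadjusted p under 0.05), 1202 with a mean of at least 5 scaled FPKM, 34 with quantile normalization, 21 with no trend, 1019 with all 8 libraries in 4 groups, 1597 with at least 10 implied fragments and 14 with transcript length and GC removed. The last 2 alternatives were chosen after seeing the data. A pseudocount of 0.1 gave 567, no scaling 667 and keeping X and Y 547. With each library left out in turn the count was 0 to 0, with smallest limma adjusted p-values of 0.0678 to 0.103; those fits have 1 residual degree of freedom and assume that a lone library varies like the other group. All of the 504 to 507 calls that could be refitted without a library kept their direction. That was set in advance, since no called gene overlapped between the pairs. Under quantile normalization 505 of 507 kept their direction.

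The replicate number as a block left 5 calls, Ttr, Mir1247, Mir6904, Mir5046 and A830082N09Rik. Mir1247, Mir6904 and Mir5046 were listed at 0 in 1 pair and implied about 0.5 fragments or fewer in each library of the other. Deviations of same-numbered libraries had a correlation of r = 0.02 across 15926 genes, from 2 pairs. Whether same-numbered libraries share a batch or litter is not given and was not tested.

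The share of calls that were higher was 76.5%, and 52.9% with quantile normalization, 47.6% with no trend, 60.4% with 8 libraries, 63.6% with no filter and 42.9% with length and GC removed. Genes with separate intervals numbered 1207 with scaled bounds, 1202 with unscaled bounds and 35 with a margin of 1.5 times.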
